A study of Mus musculus with 8 samples.

Results

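The thioredoxin and peroxiredoxin system was followed in regulatory T cells (Tregs) through 10 genes, chosen by name: Txn1, Txnip, Txnrd1, Txnrd2 and Prdx1 to Prdx6. All 10 were found by symbol among the 56980 genes of the count table, and 9 of them were among the 21991 genes that passed the filter on low counts. The samples were Tregs sorted from mouse peripheral blood, in 4 libraries of mice undergoing high-altitude de-acclimatization (HADA) and 4 of control mice. The RNA-seq methods of the study name no markers for this sort, and its suppression assay defines Tregs as CD4+CD25+. All mice were male C57BL/6j, 8 weeks old at the start. HADA mice spent 28 days in a hypobaric hypoxia chamber that simulated 6000 m and were then moved to normoxia. Control mice did not enter the chamber. The day of sorting after the return and the number of mice per library are not stated in the sources used here, and cDNA was made with a kit for very few cells, so that p-values measure the spread between these libraries.

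Thioredoxins are small proteins with a pair of reactive cysteines that reduce disulfides in other proteins. Thioredoxin reductases recharge them with electrons from NADPH, and Txnip binds thioredoxin and inhibits it. Peroxiredoxins reduce hydrogen peroxide and organic peroxides, and most of them are returned to the active state by thioredoxin. The system exists in parallel in the cytosol (Txn1, Txnrd1, Prdx1, Prdx2, Prdx6) and in mitochondria (Txn2, Txnrd2, Prdx3, Prdx5, the last also in peroxisomes and the cytosol), and Prdx4 resides in the endoplasmic reticulum. Several cytosolic genes of the system are known targets of the transcription factor Nrf2 (gene Nfe2l2), which the study examined in these cells.

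Nrf2 binds antioxidant response elements, whose core is written here as TGACNNNGC. The 250 bases before the transcription start of 3 members are shown because they bear on this known regulation, from RefSeq sequences on GRCm38.p6, read 5′ to 3′ on the strand of the gene. Capitals mark a match to the core, which in both cases lies on the opposite strand and so reads as its reverse complement. The Txn1 window (chr4:57956412-57956661) holds no match, the Prdx1 window (chr4:116685349-116685598) holds 1 at 124 bases from the start, and the second of 3 Txnrd1 windows (chr10:82858956-82859205) holds 1 at 83 bases.
Txn1: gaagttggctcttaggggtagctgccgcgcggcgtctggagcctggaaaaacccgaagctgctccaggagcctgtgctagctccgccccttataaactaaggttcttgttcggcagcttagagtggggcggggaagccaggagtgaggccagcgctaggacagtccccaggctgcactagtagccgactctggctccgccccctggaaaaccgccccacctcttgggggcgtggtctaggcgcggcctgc
Prdx1: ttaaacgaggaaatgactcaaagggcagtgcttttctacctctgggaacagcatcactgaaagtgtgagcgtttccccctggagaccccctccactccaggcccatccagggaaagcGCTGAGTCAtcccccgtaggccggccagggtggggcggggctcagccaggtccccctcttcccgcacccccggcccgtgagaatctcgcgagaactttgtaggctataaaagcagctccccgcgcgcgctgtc
Txnrd1: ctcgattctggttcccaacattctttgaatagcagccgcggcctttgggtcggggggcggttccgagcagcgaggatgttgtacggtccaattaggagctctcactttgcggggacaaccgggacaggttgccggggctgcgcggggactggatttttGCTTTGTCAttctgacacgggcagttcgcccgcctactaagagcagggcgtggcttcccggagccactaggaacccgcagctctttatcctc
Windows were given for 9 of the 10 members, and 2 of the 9, Prdx1 and Txnrd1, had a match. Counted by window, 2 of the 11 windows of these members had a match. Over all 32851 windows of the same length 10.2% had a match on either strand. A match is a description of these letters and not evidence of binding.

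The libraries differed in depth and quality beyond their groups. HADA libraries held 22929193 to 28240337 counts and control libraries 14452433 to 22584062, except control replicate 1 with 1477431. Olfactory and vomeronasal receptor genes, which Tregs are not known to use, carried 2.01 to 5.35 counts per kb of span in HADA libraries, and 0.0799, 10.8, 8.26 and 3.48 in control replicates 1 to 4. This receptor rate was taken as a background rate for each library. Ribosomal protein genes held 4.2 to 5.42% of the counts in HADA libraries and 0.490 to 3.52% in control libraries, and all 79 tested had a positive log2 fold change, with a median log2 fold change of 2.33 and 1 past the thresholds. Mitochondrially encoded genes held 5.02 to 7.59% in HADA and 0.636 to 3.81% in control libraries, again without overlap, and 16 of 16 tested had a positive log2 fold change, with a median of 2.66 and 4 past the thresholds. Of the Treg markers, Cd4, Il2ra, Ctla4, Ikzf2 and Cd3e were found in every library, with Cd4 at a CPM (counts scaled by library size with TMM factors) of 3.73 and 4.79 in control replicates 2 and 3 and 88.0 to 234 elsewhere. Il2ra was at 10.5 and 7.23 CPM in control replicates 2 and 3, and Cd3e at 1.41 CPM in control replicate 2. The Treg markers together held 0.113 to 0.181% of counts in HADA and 0.0512 to 0.101% in control libraries, without overlap, and the 5 tested had positive log2 fold changes with a median of 1.37 and 0 past the thresholds. Foxp3 and Tnfrsf18 were listed at 0 in all libraries, but other genes cover their whole span and reads on shared sequence were not counted, so they check nothing. Of other cell types, erythroid markers held 0.00978 to 0.252% of counts in HADA and 0.227 to 3.09% in control libraries (0 of 6 tested past the thresholds), B cell markers 0.0954 to 0.188% and 0.0215 to 0.259% (0 of 4), and myeloid markers 0.0569 to 0.265% and 0.0183 to 0.199% (0 of 9). Platelet markers held 0.0288 to 0.155% and 0.00718 to 0.0512% (0 of 5), and cytotoxic and NK markers 0.00817 to 0.0387% and 0.000576 to 0.00797% (1 of 5). Of these cell types, only the cytotoxic and NK shares did not overlap, by a narrow gap. Log2 fold changes were positive in 0 of 6 erythroid, 4 of 4 B cell, 7 of 9 myeloid, 5 of 5 platelet and 4 of 5 cytotoxic and NK genes. Their medians were -3.65, 0.841, 1.23, 2.665 and 4.97 in that order. Alas2 and Ms4a1 were listed at 0 in every library and are wholly covered by other genes, and Itgam and Gp1bb were at 0 in every control library. The part of these differences in the results below was not tested. In bulk libraries such as these, fewer cells of a type and less RNA per cell cannot be told apart.

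Every tested member had a higher fitted level in HADA than in control Tregs, and none passed edgeR's quasi-likelihood test, for which an adjusted p below 0.05 together with an absolute log2 fold change above 1 was required. The log2 fold changes of the 9 genes ranged from 0.43 for Prdx2 to 3.47 for Txn1, with a median of 1.58. Over all genes tested the median was 0.01 and 50.2% were positive. The count of 0 members past the thresholds stands beside 1.65% of all genes called higher and 0.477% called lower. At an unadjusted p below 0.05, where 26.7% of all genes lay, there were 2 members, Txn1 and Txnrd2. DESeq2, the tool named in the methods of the study, called the same 2 genes higher and none lower, beside 6.23% and 10.1% of all genes. In 4 members, Txn1, Txnrd2, Prdx1 and Prdx5, every HADA library was above every control library, and no member had the opposite order, beside 9.13% and 5.70% of all genes.

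**Figure D1:**
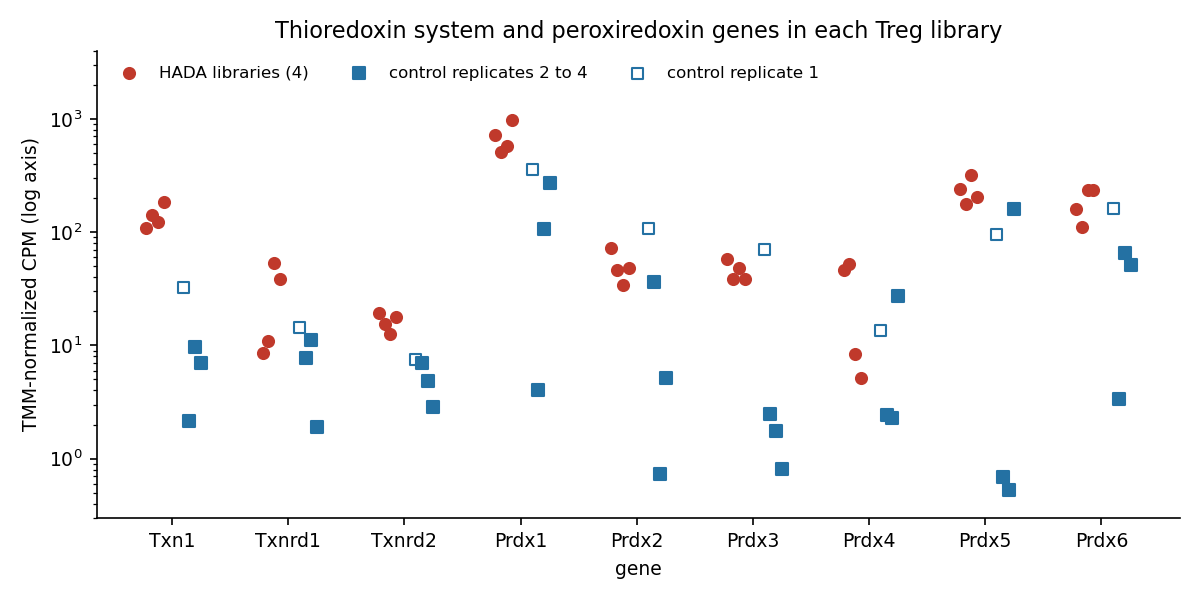
TMM-normalized CPM on a log axis for the 9 counted genes in each of the 8 libraries, with 1 point per library (red circles HADA, blue squares control, the open square control replicate 1). The HADA points of Txn1, from 110 to 183 CPM, lie above all control points, of which the open square is the highest at 32.3.

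Txn1 (ENSMUSG00000028367, chr4:57943373-57956411, GRCm39) encodes the cytosolic thioredoxin and had the largest difference of the 9 members in the edgeR and DESeq2 fits of all 8 libraries without a block. Without control replicate 1 Prdx3 exceeded it, with a log2 fold change of 4.92 against 4.59 in edgeR and 5.15 against 4.75 in DESeq2, and with the replicate block Prdx5 exceeded it, with 4.67 against 4.08. Its level was 110, 141, 124 and 183 CPM in HADA replicates 1 to 4 and 32.3, 2.13, 9.75 and 7.01 CPM in control replicates 1 to 4. The HADA libraries lay close together, and the lowest of them stood above the highest control library, replicate 1. The mean was 139 ± 32.0 CPM in HADA and 12.8 ± 13.4 CPM in control Tregs (SD, n = 4 libraries each). This corresponds to a log2 fold change of 3.47 ± 0.94 (SE) with an edgeR adjusted p of 0.0748, where the DESeq2 adjusted p was 0.000227. Without control replicate 1 the log2 fold change was 4.59 and the edgeR adjusted p 0.00872, among 15.5% of all genes called higher in that fit. The counts behind these levels were 2094 to 3379 in HADA libraries and 52, 68, 279 and 121 in control replicates 1 to 4. A pseudogene with at least 95% identity, Txn-ps1, held 321 counts over the HADA and 30 over the control libraries, and how reads that match both genes were counted is not stated.

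The 5 genes whose log2 CPM over the 8 libraries followed Txn1 most closely, among 8833 genes of moderate or high level and with the other members left out, were Rps23, Gm10073, Rplp1, Bcl2 and Rpl41. Pearson's r was 0.993 for Rps23, 0.993 for Gm10073, 0.991 for Rplp1, 0.988 for Bcl2 and 0.988 for Rpl41. Rps23, Rplp1 and Rpl41 encode ribosomal proteins and Bcl2 encodes an inhibitor of apoptosis. The 8 points share library depth and quality, and the level of Txn1 was high in the same libraries in which ribosomal protein genes as a whole held the larger share of counts.

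Txnip (ENSMUSG00000038393, chr3:96465273-96469199) was listed at 0 in all 8 libraries. Its whole span is covered by the antisense gene Gm15441, and 1077 of 1077 protein-coding genes that are wholly covered by others were listed at 0 in every library. The value for Txnip therefore says nothing about its expression. Gm15441 held 648, 151, 520 and 638 counts in HADA and 34, 17, 25 and 11 counts in control replicates 1 to 4. In CPM these were 6.32 to 38.4 in HADA and 21.1, 0.532, 0.873 and 0.637 in control replicates, so that the groups overlapped through control replicate 1. Reads on sequence shared with Txnip were not counted, so these counts come from the 7120 bases of Gm15441 that no other gene covers. The strand setting of the counting is not stated, so the strand of the reads on these bases is not known. Gm15441 had a log2 fold change of 2.21 ± 1.27 (SE) with an edgeR adjusted p of 0.260.

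Thioredoxin reductases are selenoproteins that recharge thioredoxin. Txnrd2, the mitochondrial form (ENSMUSG00000075704, chr16:18245134-18297823), stood at 19.3, 15.5, 12.6 and 18.0 CPM in HADA and at 7.46, 6.98, 4.82 and 2.84 CPM in control replicates 1 to 4. All HADA libraries were above all control libraries, and neither group held a library far from the others. Txnrd2 had a log2 fold change of 1.58 ± 0.71 (SE) with an edgeR adjusted p of 0.180 and a DESeq2 adjusted p of 0.0424. Without control replicate 1, in which Txnrd2 rests on 12 counts, the log2 fold change was 1.90 with an edgeR adjusted p of 0.0267. With all libraries drawn down to the total of that replicate, the log2 fold change was 0.38.

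Txnrd1, the cytosolic form (ENSMUSG00000020250, chr10:82669785-82733546), stood at 8.56, 10.9, 53.0 and 38.4 CPM in HADA and at 14.3, 7.80, 11.1 and 1.91 CPM in control replicates 1 to 4. HADA replicates 3 and 4 were above all control libraries, while HADA replicates 1 and 2 lay within the control range. Txnrd1 had a log2 fold change of 1.67 ± 0.93 (SE) with an edgeR adjusted p of 0.246 and a DESeq2 adjusted p of 0.165. With at least 10 counts in every library it was 0.70, and with libraries drawn down to the smallest total 0.85. Other genes cover 22.9% of the Txnrd1 span, where its reads were not counted.

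**Figure D2:**
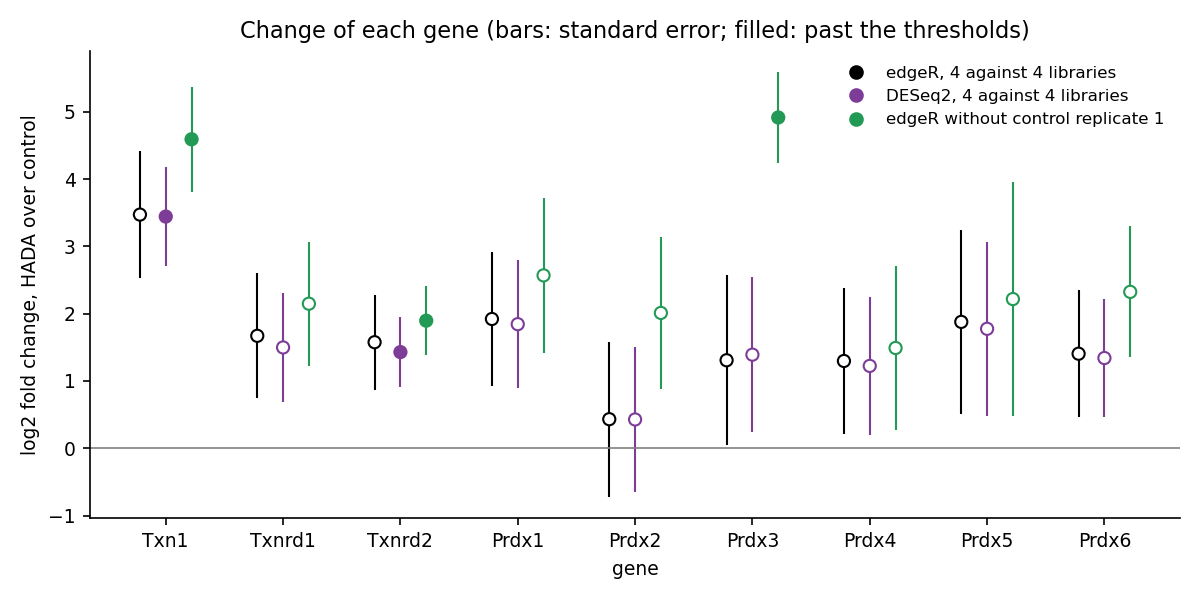
Log2 fold change of HADA over control for the 9 counted genes, with standard errors as bars, from edgeR on all 8 libraries (black), DESeq2 on all 8 libraries (purple) and edgeR without control replicate 1 (green), where filled points are past the thresholds. Prdx3 moves furthest, from 1.31 to 4.92, when control replicate 1 is left out.

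Prdx1 had the highest CPM of all members in every library but control replicate 2, and it belongs with Prdx2 and Prdx6 to the cytosolic peroxiredoxins. Prdx1 (ENSMUSG00000028691, chr4:116542741-116558019) stood at 728, 512, 580 and 987 CPM in HADA and at 361, 4.07, 107 and 270 CPM in control replicates 1 to 4. The groups did not overlap, and control replicate 2 lay far below the other control libraries. The mean was 702 ± 211 CPM in HADA and 186 ± 160 CPM in control Tregs (SD, n = 4 libraries each), and the log2 fold change was 1.92 ± 0.99 (SE) with an edgeR adjusted p of 0.223 and a DESeq2 adjusted p of 0.148. Near-identical copies of Prdx1, 2 of them in the count table, held 1891 counts over the HADA and 219 over the control libraries.

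Prdx6 (ENSMUSG00000026701, chr1:161067682-161078789), which also has phospholipase activity and is recycled mainly with glutathione, stood at 161, 111, 236 and 234 CPM in HADA and at 161, 3.38, 65.9 and 51.2 CPM in control replicates 1 to 4. Control replicate 1 lay within the HADA range and the other control libraries below it. Prdx6 had a log2 fold change of 1.41 ± 0.95 (SE) with an edgeR adjusted p of 0.325. Prdx1 and Prdx6 followed each other most closely of all pairs of members, with Pearson's r of 0.968 over the 8 libraries.

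Prdx2 (ENSMUSG00000005161, chr8:85696216-85701463), which is very abundant in red blood cells, had the smallest difference of all members. Its level was 71.8, 46.6, 33.9 and 48.7 CPM in HADA and 107, 36.7, 0.734 and 5.16 CPM in control replicates 1 to 4. The highest library was control replicate 1, which also held the largest share of erythroid marker counts, 3.09%. That share was 0.227, 0.525 and 0.584% in control replicates 2 to 4 and 0.252, 0.104, 0.00978 and 0.0108% in HADA replicates 1 to 4. Control replicates 3 and 4, with the next largest shares, had the lowest Prdx2 levels, while HADA replicate 1 was highest of its group in both. The part of red blood cell RNA in the Prdx2 values was not tested. Its log2 fold change was 0.43 ± 1.15 (SE) with an edgeR adjusted p of 0.812, and the sign changed between settings, with -0.28 with libraries drawn down to the smallest total and 2.01 without control replicate 1.

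Prdx3 and Prdx5 are the mitochondrial peroxiredoxins. Prdx3 (ENSMUSG00000024997, chr19:60852489-60862994) stood at 57.7, 38.6, 48.0 and 38.5 CPM in HADA and at 70.2, 2.47, 1.75 and 0.811 CPM in control replicates 1 to 4. Control replicate 1 was the highest of all 8 libraries, and the other 3 control libraries were far below every HADA library. Over all libraries the log2 fold change was 1.31 ± 1.27 (SE) with an edgeR adjusted p of 0.489, and it was 4.92 with an edgeR adjusted p of 0.00542 without control replicate 1. The call for Prdx3 rested on whether that 1 library was included.

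Prdx5 (ENSMUSG00000024953, chr19:6884065-6887474) stood at 240, 179, 321 and 204 CPM in HADA and at 94.5, 0.689, 0.524 and 162 CPM in control replicates 1 to 4. The groups did not overlap, but the control libraries fell into a high pair, replicates 1 and 4, and a pair with only 22 and 15 counts, replicates 2 and 3. Prdx5 had a log2 fold change of 1.88 ± 1.37 (SE) with an edgeR adjusted p of 0.360 and a DESeq2 adjusted p of 0.314. Other genes cover 12% of the Prdx5 span and 10.1% of the Prdx2 span, where reads were not counted.

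Prdx4 (ENSMUSG00000025289, chrX:154106914-154123750), the peroxiredoxin of the endoplasmic reticulum, stood at 46.8, 52.3, 8.39 and 5.11 CPM in HADA and at 13.7, 2.41, 2.31 and 27.5 CPM in control replicates 1 to 4. HADA replicates 1 and 2 were above all control libraries and HADA replicates 3 and 4 lay inside the control range, the reverse of the order seen for Txnrd1. Prdx4 had a log2 fold change of 1.30 ± 1.08 (SE) with an edgeR adjusted p of 0.422. Txnrd1 and Prdx4 had the lowest Pearson's r of all pairs of members, -0.319 over the 8 libraries.

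Without control replicate 1, edgeR called 3 members higher, Txn1, Txnrd2 and Prdx3, and DESeq2 called 5, these 3 with Txnrd1 and Prdx6. These counts stand beside 15.5% of all genes called higher by edgeR and 17.5% by DESeq2 in the same fits. No member was called lower in either fit, beside 19.7% and 17.4% of all genes. The member genes together held 0.130% (95% Wilson interval 0.128 to 0.131), 0.115% (0.114 to 0.117), 0.0951% (0.0939 to 0.0963) and 0.110% (0.109 to 0.111) of all counts in HADA replicates 1 to 4. The shares were 0.0939% (0.0891 to 0.0989), 0.0147% (0.0141 to 0.0154), 0.0259% (0.0252 to 0.0266) and 0.0422% (0.0413 to 0.0431) in control replicates 1 to 4. By this measure control replicate 1, the shallowest library, lay close to the lowest HADA library, replicate 3, with overlapping intervals. The other control libraries were below control replicate 1, with intervals that did not overlap its own. These intervals cover counting error within a library and not the spread between libraries. Prdx1 alone made up 40.9 to 56.2% of the member counts in every library but control replicate 2, where it made up 6.11%.

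The counts of several members in control libraries were under the receptor rate. For each gene, the counts were divided by those that the receptor rate of the same library would give over the part of its span that no other gene covers. The rate is a mean over receptor genes and not a floor. Mlxipl, another gene of the pathway, lay at 0.208 to 0.429 times the rate in all 8 libraries. In control replicates 2, 3 and 4 there were 8, 6 and 3 of the 9 members under this rate, against 0 in control replicate 1. In the HADA libraries 1 member was under it, Txnrd1 in replicate 1 with a ratio of 0.824. Txnrd2 reached 1.75, 1.60, 1.41 and 2.85 times the rate in HADA replicates 1 to 4, and 2.88, 0.396, 0.320 and 0.269 times in control replicates 1 to 4. Prdx3 was 19.8 to 30.4 times the rate in HADA replicates, 135 times in control replicate 1 and 0.698, 0.576 and 0.382 times in control replicates 2 to 4. Txn1 was at 39.8 times the rate or more in every HADA library and in control replicate 1, and at 0.484, 2.59 and 2.66 times in control replicates 2 to 4. Txnrd2 thus ranged from 0.269 to 2.88 times the rate over all libraries, and Prdx3 was under the rate only in these 3 control libraries. With the receptor rate subtracted from every gene, the log2 fold change of Txn1 was 3.42 ± 1.89 (SE), that of Txnrd2 2.58 ± 2.24 and that of Prdx2 -0.64 ± 1.97, while the median over all genes tested in that fit was 1.003. No member passed the thresholds there. Leaving out the densest 5% of receptor genes before the subtraction, a choice made after seeing the data, moved the genes called higher from 99 to 743 over all genes.

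**Figure D3:**
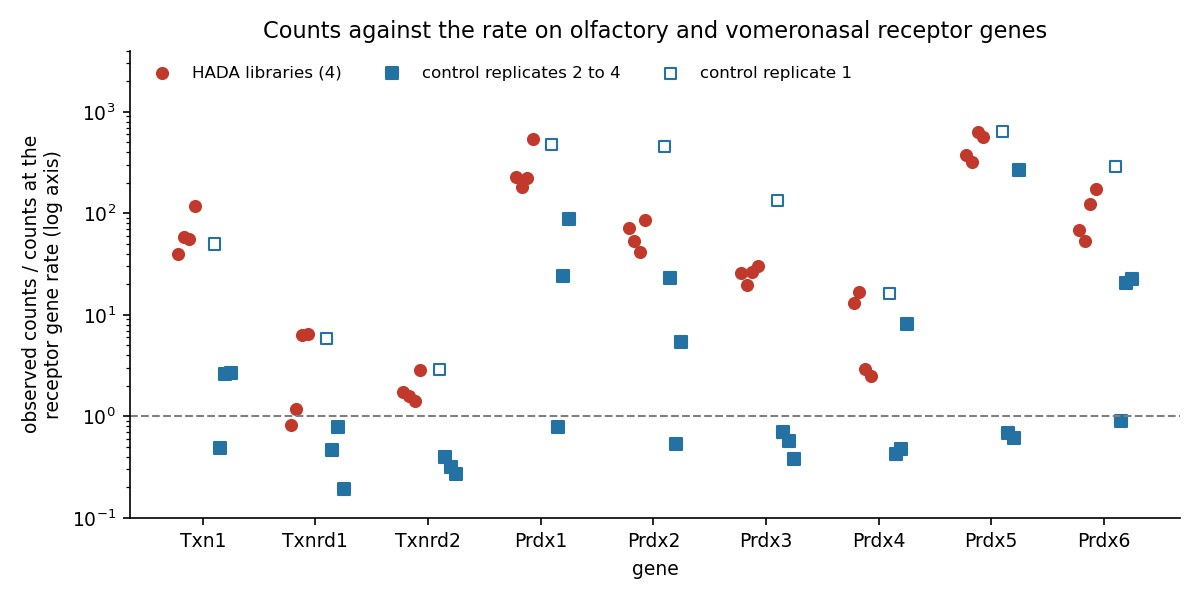
Counts of each gene divided by the counts expected from the receptor gene rate of the same library, on a log axis, with 1 point per library and the dashed line at 1. In control replicate 2, all members but Prdx2 lie below the line, whereas Prdx1, Prdx5 and Prdx6 lie far above it in every HADA library.

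Levels of different members were compared per kb of the span that no other gene covers, as mean CPM per kb over the 4 HADA libraries. Prdx5 was at 78.7 (range 59.6 to 107) and Prdx1 at 45.9 (33.5 to 64.6), and these ranges overlapped. Prdx6 followed at 16.7 (10.03 to 21.3), Txn1 at 10.7 (8.41 to 14.1) and Prdx2 at 10.7 (7.19 to 15.2), again with overlapping ranges that lay below that of Prdx1. Prdx3 at 4.35 (3.66 to 5.49) and Prdx4 at 1.67 (0.303 to 3.10) were each separate from the gene above. The reductases were lowest, Txnrd1 at 0.564 (0.174 to 1.08), whose range overlapped that of Prdx4, and Txnrd2 at 0.313 (0.241 to 0.369). The order depends on the length used, because the span includes introns: per kb of annotated exons the mean was highest for Prdx1 at 169, then Prdx5 at 94.0 and Txn1 at 63.4 CPM per kb, and Txnrd1 at 3.91 and Txnrd2 at 3.71 remained lowest. The exon length includes exon sequence that other genes cover, where reads were not counted. This can lower the value per exon kb of partly covered genes such as Prdx5 and Txnrd1.

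No difference in change between the cytosolic and the mitochondrial arm was detected. For 3 pairs of genes with the same role, the log2 ratio of cytosolic to mitochondrial counts was taken in each library, which does not depend on how libraries are scaled. The log2 ratio of Txn1 to Txn2, the mitochondrial thioredoxin, was 0.98, 0.79, -0.66 and -1.05 in HADA and -1.59, 0.36, 1.55 and 1.29 in control replicates 1 to 4. Both groups spread across 0 and overlapped. The difference, HADA minus control, was -0.39 with an exact two-sided permutation p of 0.714, beside SDs of 1.02 in HADA and 1.43 in control libraries (n = 4 each).

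For Txnrd1 to Txnrd2 the log2 ratio was -1.17, -0.52, 2.07 and 1.09 in HADA and 0.91, 0.16, 1.20 and -0.56 in control replicates 1 to 4. The difference was -0.06 with an exact permutation p of 0.943, beside SDs of 1.48 and 0.79. For Prdx1 to Prdx3 it was 3.66, 3.73, 3.60 and 4.68 in HADA and 2.36, 0.71, 5.93 and 8.33 in control replicates 1 to 4. HADA libraries were tightly grouped and lay between the extremes of the control libraries, and the difference was -0.42 with an exact permutation p of 0.857, beside SDs of 0.51 and 3.44. After Benjamini-Hochberg adjustment over the 3 pairs the permutation p was 0.943 for each, where the smallest unadjusted p possible for 4 against 4 libraries is 0.0286. With spreads of this size, these tests do not show that the arms changed alike. The ratios in control replicates 2 to 4 rest in part on genes under the receptor rate. With that rate subtracted the differences were -3.49 for Txn1 to Txn2, -1.65 for Txnrd1 to Txnrd2 and -3.05 for Prdx1 to Prdx3, with exact permutation p of 0.343, 0.714 and 0.429.

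**Figure D4:**
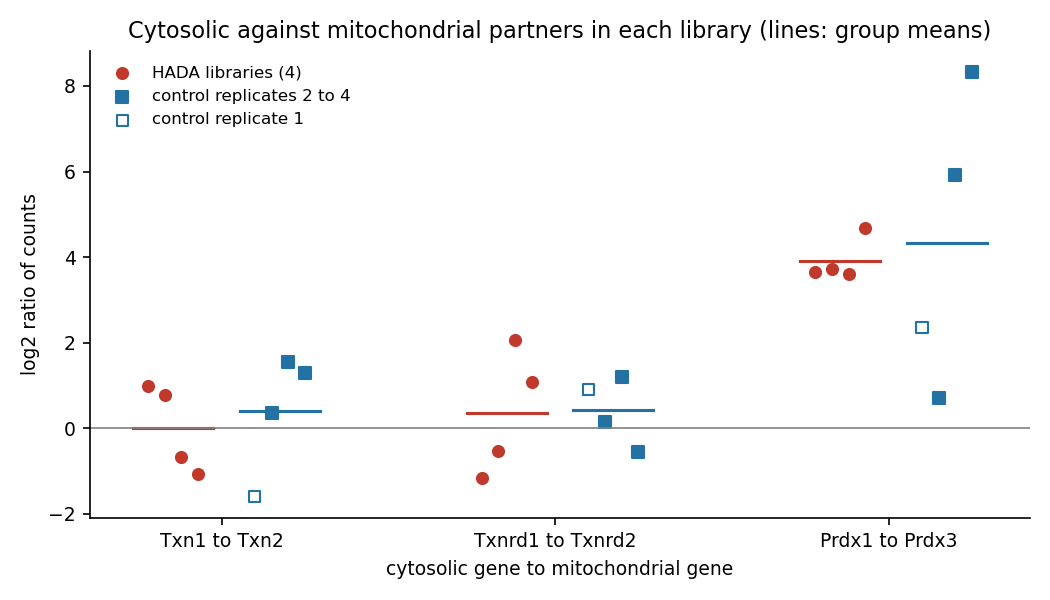
Log2 ratio of the counts of the cytosolic gene to those of its mitochondrial partner in each library, with group means as lines (red circles HADA, blue squares control, the open square control replicate 1). The groups overlap in all 3 pairs, and the ratio of Prdx1 to Prdx3 spreads from 0.71 to 8.33 among control libraries.

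Averaged over members, the mean log2 CPM of the 5 counted cytosolic genes minus that of the 3 mitochondrial genes was 0.57, 0.81, 1.11 and 1.53 in HADA and 1.08, 1.36, 3.03 and 1.08 in control replicates 1 to 4. The means were 1.01 ± 0.42 and 1.64 ± 0.94 (SD, n = 4 libraries each), a difference of -0.63 that is smaller than the spread of the control libraries and was 0.07 without Prdx5. The median log2 fold change was 1.67 over the cytosolic and 1.58 over the mitochondrial genes, with 5 of 5 and 3 of 3 positive.

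Of 41 other genes of the pathway, 38 were tested. None passed the thresholds in edgeR, 33 had a positive and 5 a negative log2 fold change, and the median was 1.27, against 0.01 over all genes. At an unadjusted p below 0.05 there were 8 genes of the 38, beside 26.7% of all genes. DESeq2 called 6 pathway genes higher (Txnrd3, Nxn, Txndc17, Glrx2, Msrb2 and Mlx) and 0 lower, beside 6.23% and 10.1% of all genes. Groups did not overlap in 6 genes, all higher in HADA, beside 9.13% of all genes. Without control replicate 1 edgeR called 13 higher, beside 15.5%.

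Among proteins with a thioredoxin fold, Txn2 stood at 55.5, 82.0, 195 and 381 CPM in HADA and at 98.2, 1.66, 3.32 and 2.84 CPM in control replicates 1 to 4. Control replicate 1 lay within the HADA range, and the other control libraries were, as with Prdx3, far below every HADA library. Its log2 fold change was 2.78 ± 1.34 (SE) with an edgeR adjusted p of 0.201, and 6.23 with an edgeR adjusted p of 0.00796 without control replicate 1. Txndc17, a thioredoxin-related protein of the cytosol, had the smallest p in this group: it stood at 61.8, 21.7, 54.8 and 222 CPM in HADA and at 20.5, 0.971, 0.0699 and 0.348 CPM in control replicates 1 to 4. The lowest HADA and the highest control library nearly met. Its log2 fold change was 4.14 ± 1.59 (SE) with an edgeR adjusted p of 0.139.

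Srxn1, sulfiredoxin, repairs overoxidized peroxiredoxins and is a known Nrf2 target. It held only 35, 11, 40 and 23 counts in HADA and 2, 10, 11 and 2 counts in control replicates 1 to 4, and it had a log2 fold change of 2.001 ± 0.739 (SE) with an edgeR adjusted p of 0.131. Glrx, glutaredoxin, which uses glutathione in place of thioredoxin reductase, stood at 127, 36.6, 243 and 184 CPM in HADA and at 45.4, 2.60, 33.3 and 0.695 CPM in control replicates 1 to 4. In CPM the groups of both genes overlapped only in that HADA replicate 2 lay below control replicate 1, where Srxn1 rests on 2 counts. Glrx had a log2 fold change of 2.86 ± 1.20 (SE) with an edgeR adjusted p of 0.164.

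Msrb2, a mitochondrial methionine sulfoxide reductase that depends on thioredoxin, stood at 12.1, 17.1, 100 and 38.1 CPM in HADA and at 4.35, 4.196, 3.14 and 0.637 CPM in control replicates 1 to 4. Its groups did not overlap, and its log2 fold change was 3.78 ± 1.04 (SE) with an edgeR adjusted p of 0.0767 and a DESeq2 adjusted p of 0.0013. Mlx, the partner of the glucose-sensing factors that drive Txnip, stood at 15.4, 27.4, 72.3 and 59.4 CPM in HADA and at 10.6, 0.532, 0.210 and 0.348 CPM in control replicates 1 to 4. The groups did not overlap here either. Mlx had a log2 fold change of 4.08 ± 1.38 (SE) with an edgeR adjusted p of 0.115 and a DESeq2 adjusted p of 0.00578.

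Nfe2l2 stood at 174.8, 144.6, 334 and 303 CPM in HADA and at 131, 4.92, 124 and 71.2 CPM in control replicates 1 to 4. The groups did not overlap, though control replicates 1 and 3 were close to HADA replicate 2. Nfe2l2 had a log2 fold change of 1.53 ± 0.90 (SE) with an edgeR adjusted p of 0.268 and a DESeq2 adjusted p of 0.214. Keap1, which targets Nrf2 for degradation, held 7 to 54 counts in HADA and 4 to 8 counts in control libraries and did not pass the filter of the edgeR test, with other genes covering 35.3% of its span. In CPM the mean of Keap1 was 0.918 in HADA and 1.40 in control libraries, and control replicate 1 was the highest of all libraries at 4.97. DESeq2 without that library, control replicate 1, called Keap1 higher, with a log2 fold change of 2.47 and an adjusted p of 0.0192, beside 17.5% of all genes.

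**Figure D5:**
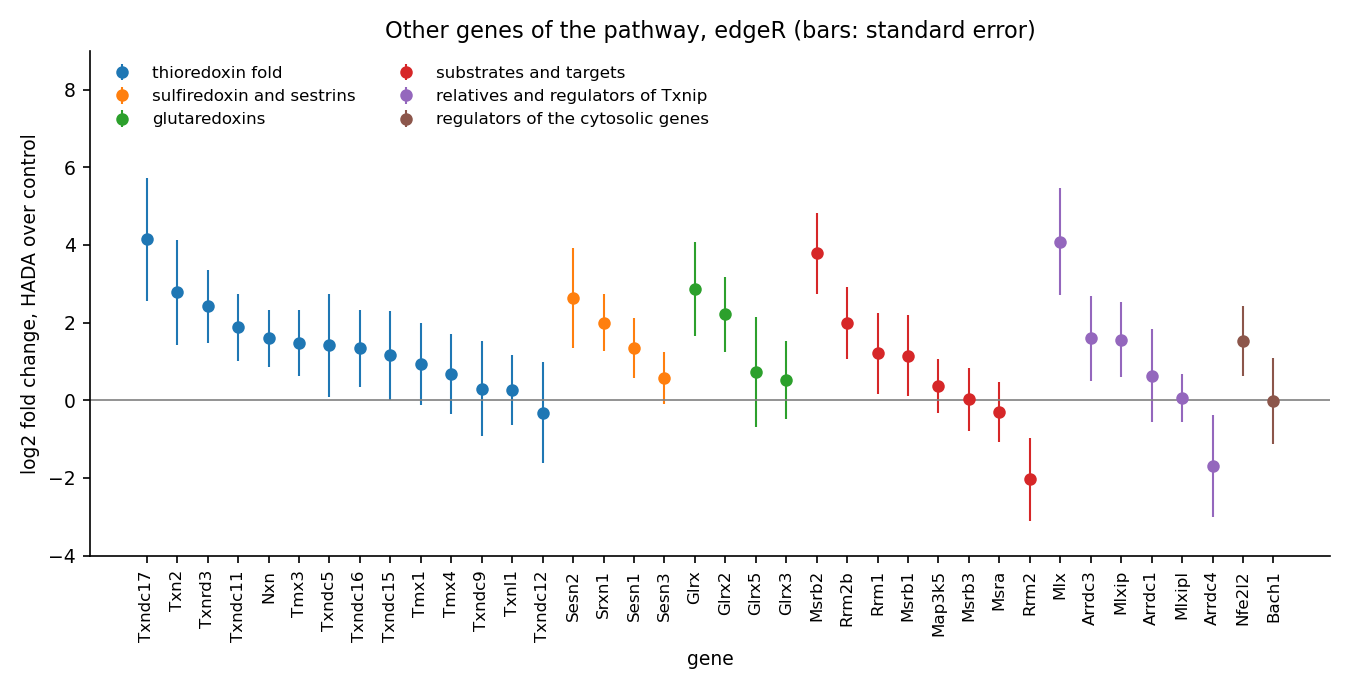
Log2 fold change of HADA over control with standard errors for the 38 tested other genes of the pathway, coloured by role and ordered within each role. Most points lie above 0, from Txndc17 at 4.14 to Rrm2 at -2.04, and none is past the thresholds in edgeR.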

How the data were processed

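RNA-seq was made from sorted peripheral blood Tregs of 4 HADA and 4 control samples, grouped by their labels. The authors used Trimmomatic for trimming, STAR for alignment (GRCm39) and featureCounts for counting, and deposited raw counts. The strand and multi-mapping settings are not given in the sources used here. The deposited lengths equal gene spans, so counts include introns, and reads on sequence shared by overlapping genes were not counted. Gene names came from GENCODE vM39 (56236 of 56980 identifiers). Coordinates are those of the deposited table.

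Differences were tested with edgeR 4.0.16 in R 4.3.3 (TMM, filterByExpr, quasi-likelihood test, Benjamini-Hochberg over 21991 genes) at an adjusted p below 0.05 and an absolute log2 fold change above 1. The SE is the log2 fold change divided by the square root of F. CPM used TMM-scaled library sizes, with a prior count of 2 on the log2 scale. Partner ratios added 0.5 to each count and were compared by exact permutation. Near copies were sought with blastn 2.17.0 (at least 95% identity over 100 bases). Other steps used Python 3.11.15, pandas 2.3.3, numpy 2.4.6 and scipy 1.17.1. The fits were run on simulated counts at a small dispersion and at the common dispersion of these data, 0.805. A minimum recovery was required only of edgeR at the small dispersion, so this check does not show the power at the spread of these data.

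Totals per library were 1477431 to 28240337 counts. Intervals cover counting error only. No pair of libraries had identical counts. Alternatives were DESeq2 1.42.0 and its size factors, other filters, no fold threshold, a replicate block, libraries drawn down to the smallest total (seed 1), the rate on 1393 receptor genes subtracted, and each library left out. Members and lists were chosen with earlier results of these data known. The text names all members, Txn2, Srxn1, Nfe2l2 and Keap1, in each role the genes past the thresholds and that with the smallest p, and the 5 genes most like Txn1. Txnrd3, Nxn, Glrx2, Rrm2, Mlxipl and Gm15441 were added after their values were seen.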

Additional observations from a re-analysis of the deposited data

Results flagged for a closer look

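In 34 groups of 4 libraries, Dixon's test marked 4 values as far from the other 3 of their group, where chance marks about 1.7. The log2 CPM of Txn2 in control replicate 1 was 6.61, against 0.79 to 1.76 in the other control libraries. The log2 CPM of Keap1 in the same library was 2.34, against -1.99 to -1.55, and rests there on 8 counts. The log2 ratio of Prdx1 to Prdx3 in HADA replicate 4 was 4.68, against 3.60 to 3.73. The mean log2 CPM of cytosolic minus mitochondrial members in control replicate 3 was 3.03, against 1.08 to 1.36.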

How the results depend on the processing

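The 0 members past the thresholds became 2 with DESeq2, 3 with edgeR without control replicate 1 and 5 with DESeq2 without that library, an alternative chosen after seeing the data, and the count stayed at 0 to 3 over all libraries left out in turn. For the other pathway genes the count was 6 with DESeq2, 20 with DESeq2 without control replicate 1, 2 after subtraction of the receptor rate without the densest 5% of receptor genes (also chosen after seeing the data), and 0 to 13 with single libraries left out. No member or pathway gene was called lower under any alternative. Over all genes, the 363 called higher became 2020 with DESeq2, 93 with at least 10 counts in every library, 158 with the replicate block, 133 with libraries drawn down, 99 and 743 with the receptor rate subtracted without and with the densest receptor genes left out, 6022 with DESeq2 without control replicate 1, and 28 to 3716 with single libraries left out. The 105 called lower became 3286, 19 without a filter, 11 with the replicate block, 5996 with DESeq2 without control replicate 1, and 1 to 4732 with single libraries left out. The cause was not tested. Replicate numbers were treated as unpaired, though 4 libraries per group cannot decide whether they pair the samples. Deviations of same-numbered libraries correlated at -0.207, 0.252, -0.081 and -0.003. The replicate block left 0 members and 0 pathway genes past the thresholds. With it the log2 fold change of Prdx3 moved from 1.31 to 3.82 and that of Txnrd1 from 1.67 to 1.52. The log2 fold change of Prdx2 turned to -0.12 with at least 10 counts in every library, -0.28 with libraries drawn down, -0.64 and -0.43 with the receptor rate subtracted, and -0.031 to 2.01 with single libraries left out, while that of the other 8 members stayed positive under every alternative. With at least 10 counts in every library and with libraries drawn down, that of Txnrd2 was 0.69 and 0.38 and that of Txnrd1 0.70 and 0.85. Over all genes the median log2 fold change moved from 0.01 to 1.003 and 1.32 with the receptor rate subtracted. With DESeq2 it was -0.99 over all genes given a fold change, a wider set than the 32445 genes given an adjusted p. Over the 21991 genes tested by edgeR the DESeq2 median was -0.17. In the subtraction and DESeq2 fits, changes stand against these medians. The difference in the log2 ratio of Txnrd1 to Txnrd2 turned to 0.76 with libraries drawn down, 0.005 with the second subtraction, and -0.63 to 0.46 with single libraries left out. That of Prdx1 to Prdx3 ranged from -1.62 to 0.92 with single libraries left out, was 0.12 without control replicate 3, and was -3.05 and -3.08 with the receptor rate subtracted (exact permutation p of 0.429 for both). That of Txn1 to Txn2 was -3.49 and -2.72 with the receptor rate subtracted (exact permutation p of 0.343 for both) and -1.05 to -0.006 with single libraries left out. The cytosolic minus mitochondrial difference was -1.75 and -1.68 with the receptor rate subtracted, 0.07 without Prdx5, so that its sign rests on that gene, and -0.82 to -0.17 with single libraries left out. Leaving out Txnip gave no separate value, since Txnip was listed at 0 and did not enter. Control replicate 1, with 1477431 counts, limits what low genes such as Srxn1 and Keap1 can show.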

Other observations

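Within the HADA group, replicates 1 and 2 differed from replicates 3 and 4 in several genes of the system, a pattern noticed after the values were seen and not tested. Txnrd1 was at 8.56 and 10.9 CPM in replicates 1 and 2 and at 53.0 and 38.4 CPM in replicates 3 and 4. Prdx4 had the opposite order, with 46.8 and 52.3 CPM against 8.39 and 5.11 CPM. Txn2 was at 55.5 and 82.0 CPM against 195 and 381 CPM, while Txn1 lay between 110 and 183 CPM in all 4 libraries. The TMM factors of these libraries were 0.901 and 1.04 against 0.673 and 0.628, and the receptor rates 5.35 and 4.44 against 2.90 and 2.01 counts per kb. Erythroid markers held 0.252 and 0.104% of counts against 0.00978 and 0.0108%, and B cell markers 0.0964 and 0.0954% against 0.155 and 0.188%. Treg markers held 0.124 and 0.113% against 0.156 and 0.181%, and cytotoxic and NK markers 0.00817 and 0.01% against 0.0123 and 0.0387%. Myeloid and platelet shares did not split in this way.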
